A study of Mus musculus with 16 samples.

Results

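Accessible chromatin at 9 genes of interferon and cytokine signalling was followed across 8 inbred mouse strains by ATAC-seq of pancreatic islets. The genes were Stat2, Irf1, Irf7, Irf9, Ifih1, Cxcl10, Ptpn2, Socs1 and Socs3. They were chosen by name for their place in the pathway and not by a measured value, but with earlier results of these data known. Overlapping or touching peaks of the 16 sample lists were merged on the autosomes, and a region was assigned to a gene if it overlapped the GENCODE gene body or the 3000 bases upstream of it. This gave 45 regions of 347712 in all.

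The strains were 129 (129S1_SvImJ), AJ (A_J), B6 (C57BL/6J), NOD (NOD_ShiLtJ), NZO (NZO_HlLtJ), CAST (CAST_EiJ), PWK (PWK_PhJ) and WSB (WSB_EiJ), each with 1 female and 1 male sample of 50 islets. The last 3 are wild-derived and the other 5 classical, per the text of the study. No treatment was given in the labels, and the age of the animals was not given in the sources used here. A strain was thus represented by 2 samples of opposite sex, so the spread within a strain holds any difference between the sexes as well as between animals. NOD mice are known for autoimmune diabetes and NZO mice for obesity with diabetes, while B6 is the strain of the reference genome to which all reads were aligned.

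In interferon signalling, a receptor at the cell surface activates JAK kinases, which phosphorylate STAT proteins. STAT dimers bind the GAS element, and the complex of STAT proteins with IRF9 binds the interferon-stimulated response element (ISRE). Their targets include sensors of viral RNA, chemokines and the SOCS proteins, which inhibit the kinases in turn. In islets, this pathway is known for the response of beta cells to virus infection and to cytokines of infiltrating immune cells.

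The promoters below carry elements of this pathway and lay in regions with a peak in all 16 samples, which is why they are shown. The sequences are from RefSeq (GRCm38.p6, the same assembly as mm10), 5′ to 3′ on the strand of the gene, and end at the last base before the RefSeq start. Capitals mark the ISRE (GAAANNGAAA), the GAS element (TTCNNNGAA) or the kappaB element (GGGANNTTCC), each searched on both strands. The Ifih1 promoter held none of these letters and is shown because the strain differences of this gene are described most fully. The whole peak region at the Ifih1 start held 1 ISRE match, outside the sequence shown. The Stat2 match reads as the ISRE on the opposite strand, and the 2 ISRE matches of Socs1 overlap each other.
Stat2, chr10:128270248-128270497, + strand: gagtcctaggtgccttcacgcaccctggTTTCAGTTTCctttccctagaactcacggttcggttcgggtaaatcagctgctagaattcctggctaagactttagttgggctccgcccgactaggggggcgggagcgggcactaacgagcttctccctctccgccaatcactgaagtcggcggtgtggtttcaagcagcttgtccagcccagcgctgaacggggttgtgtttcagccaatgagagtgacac
Irf1, chr11:53769764-53770013, + strand: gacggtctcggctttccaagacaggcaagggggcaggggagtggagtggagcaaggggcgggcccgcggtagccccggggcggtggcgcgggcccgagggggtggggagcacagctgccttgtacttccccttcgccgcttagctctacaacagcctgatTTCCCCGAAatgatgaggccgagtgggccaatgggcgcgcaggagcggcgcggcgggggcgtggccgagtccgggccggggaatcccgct
Ifih1, chr2:62646256-62646505, - strand: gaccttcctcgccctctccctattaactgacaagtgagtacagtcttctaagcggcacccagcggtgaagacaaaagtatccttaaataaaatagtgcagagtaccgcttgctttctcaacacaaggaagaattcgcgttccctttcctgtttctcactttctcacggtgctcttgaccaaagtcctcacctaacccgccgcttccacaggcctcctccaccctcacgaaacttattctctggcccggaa
Cxcl10, chr5:92348890-92349139, - strand: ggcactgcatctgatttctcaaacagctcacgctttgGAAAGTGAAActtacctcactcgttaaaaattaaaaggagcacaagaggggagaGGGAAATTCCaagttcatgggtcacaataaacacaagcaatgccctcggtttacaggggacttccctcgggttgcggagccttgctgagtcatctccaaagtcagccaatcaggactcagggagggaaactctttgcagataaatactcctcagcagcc
Socs1, chr16:10785537-10785786, - strand: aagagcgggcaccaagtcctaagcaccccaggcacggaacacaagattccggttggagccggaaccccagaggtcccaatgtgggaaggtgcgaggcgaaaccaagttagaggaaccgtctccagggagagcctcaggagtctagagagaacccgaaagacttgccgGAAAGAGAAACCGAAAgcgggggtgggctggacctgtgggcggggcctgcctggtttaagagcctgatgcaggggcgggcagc

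Relative to the RefSeq start, the ISRE match lay at -213 to -204 in Cxcl10, at -222 to -213 in Stat2, and at -83 to -74 and -77 to -68 in Socs1. The GAS match of Irf1 lay at -90 to -82, and the kappaB match of Cxcl10 at -159 to -150. In the 250 bases upstream of all 32851 RefSeq starts of this table, 2.98% held the ISRE letters, 7.02% the GAS letters and 1.21% the kappaB letters. A match of letters is a description of the reference sequence and not evidence that a factor was bound. The highest summit of the Irf1 start region lay at -150 to -65 from the gene start over the 16 samples, so the GAS match was within the range of the summits. In Cxcl10 the summits lay at -127 to -43, between both matches and the start.

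The 16 sample lists held 77887 (AJ male) to 167051 (WSB female) autosomal peaks. The summit signal of a peak, the whole-number height that the peak caller gave, had a median of 32 (PWK male) to 136 (CAST male) over the 40940 regions with a peak in every sample. Values below are therefore scaled signals, the highest summit in a region divided by that median of the same sample. Of 10 islet endocrine marker genes, 8 to 9 had a peak at the start in each sample, with Ins2 in none and Sst in 1 sample. Of 16 leukocyte markers, 0 to 3 had a peak in 15 of the samples, with a summed scaled signal of 0 to 0.871. In the NZO male there were 6 (Adgre1, Csf1r, Lyz2, Spi1, Cd68 and Cd52), with a sum of 3.44. Of these, Csf1r was higher in the PWK female (0.5484) than in the NZO male (0.4545). No sample had a peak at 9 of the leukocyte markers, among them Cd3e, Cd4, Cd8a and Ms4a1 of T and B cells, Itgam and Coro1a. Ptprc had a peak in the PWK male alone. In these bulk samples, a change in the share of a cell type and a change in accessibility within its cells cannot be told apart.

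Of the 45 regions, 15 had a peak in all 16 samples, against 11.8% of all merged regions. These were the start regions of every gene but Socs3, 5 introns of Ifih1, 1 intron of Ptpn2 and the second region of Socs3. In 12 of the 15, the peak also passed an irreproducible discovery rate of 0.05 between female and male in all 8 strains, and the exceptions were the Irf7 start (6 strains) and the Ifih1 regions centred 18262 and 26948 bases past the start (3 and 7 strains). Another 13 regions had a peak in 2 to 15 samples. The remaining 17 were called in a single sample, with a median width of 200 bases, and none passed that rate in a strain list. Of these 17, 16 came from the 4 longest lists (WSB female, PWK male, NZO male and CAST female), whose lengths were 140841 to 167051 peaks. The part of list length in these single calls was not tested.

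**Figure D1:**
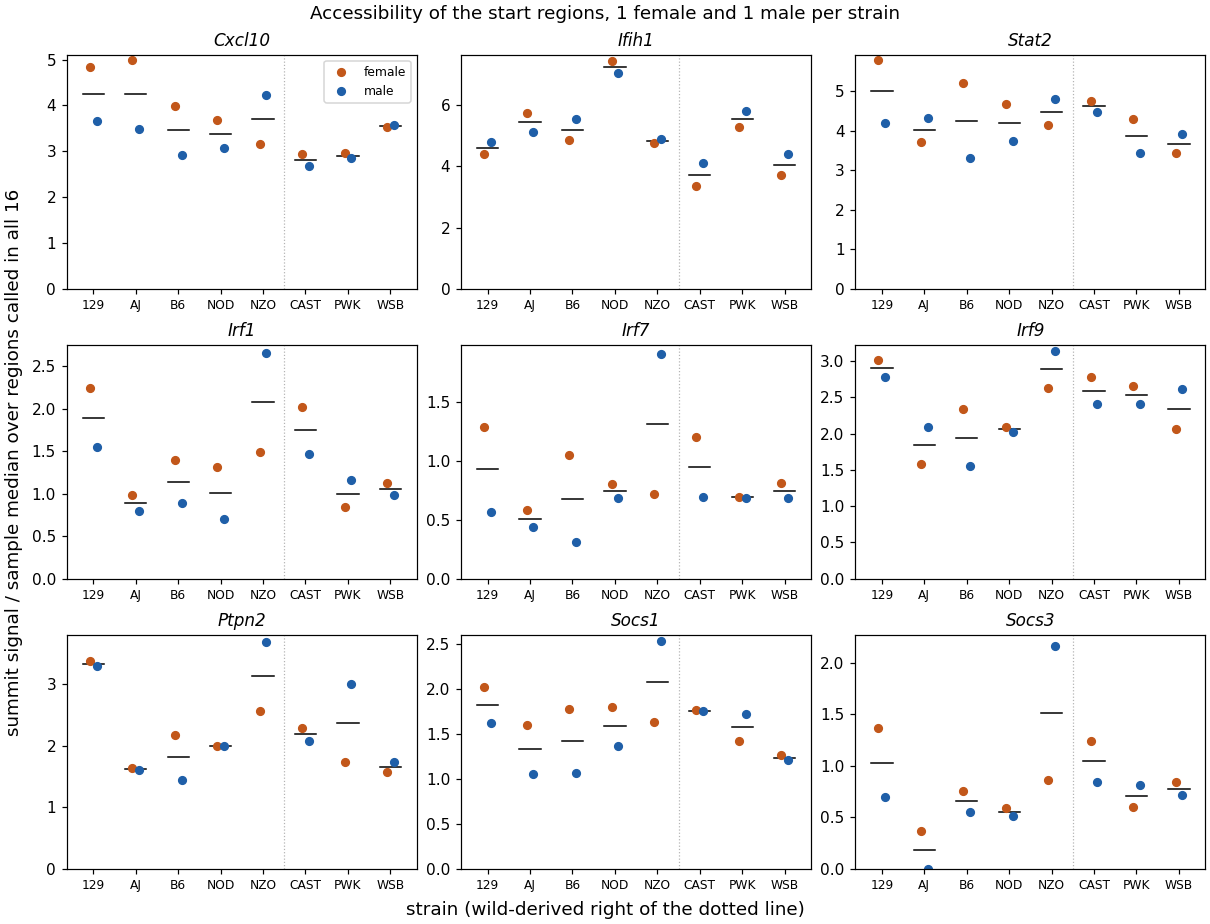
Scaled summit signal (summit over the sample's median across regions called in all 16) at the start region of the 9 genes, by strain, with females in orange, males in blue and the mean of each strain as a line. NOD stood highest at Ifih1 (7.43 and 7.04), and the NZO male at 6 genes; the point at 0 for Socs3 is the AJ male, without a listed peak.

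Strain differences were tested with limma across all 40940 shared regions. Of the 15 shared member regions, 3 passed at an adjusted p under 0.05, against 35.7% of all shared regions, so members were not called more often than the background. They were introns of Ifih1 and Ptpn2. None of the 8 shared start regions passed, against 24.4% of the 12221 shared regions at a transcript start. At an unadjusted p under 0.05 there were 9 of the 15, near the 51.3% of all shared regions. The median range between the highest and the lowest strain mean was 1.15 on the log2 scale over the 15 regions and 1.11 over all. The count of 3 moved with single libraries, and so did the share of all shared regions called in the same fit. It was 10 (60.1% of all) without the NZO female, 5 without the NZO male (46.2%) or the PWK male (33.9%), and 1 without the CAST male (19.2%), the WSB female (23.2%) or the WSB male (22.7%). When samples were centred on the start regions in place of all shared regions, a choice made after seeing the data, 0 of 15 passed, against 24.6% of all.

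Ifih1 encodes MDA5, a cytosolic sensor of long double-stranded RNA, and is a known type 1 diabetes risk gene in humans. Its start region (chr2:62645176-62647104, which overlaps an exon) was called in all samples. The scaled signals of female and male were 4.40 and 4.78 in 129, 5.74 and 5.13 in AJ, 4.85 and 5.53 in B6, 7.43 and 7.04 in NOD, 4.75 and 4.89 in NZO, 3.36 and 4.10 in CAST, 5.29 and 5.81 in PWK and 3.70 and 4.41 in WSB. Both NOD samples were above all 14 others, and both CAST samples were among the lowest. The NOD mean was 7.23 ± 0.278 (SD, n = 2), and PWK, next in order, had 5.55 ± 0.369. Of the 7 neighbouring pairs in the order NOD, PWK, AJ, B6, NZO, 129, WSB and CAST, only NOD and PWK did not overlap.

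In the limma fit, the NOD start region was 1.54-fold the mean of the other 7 strains (0.62 ± 0.17 on the log2 scale, SE, adjusted p = 0.065), which missed the threshold, as did the test across strains (adjusted p = 0.058). The adjusted p of the NOD contrast ranged from 0.0113 to 0.609 over 29 alternatives and passed in 6 of them. NOD contrasts passed at 3.02% of all shared regions. The leukocyte markers summed to 0.256 in the NOD female and 0.146 in the NOD male, within the range of the other samples. Unlike most start regions below, the Ifih1 start did not follow the sample's median over all start regions (Pearson r = -0.23, Spearman rho = -0.26 over 16 samples, as a description).

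**Figure D2:**
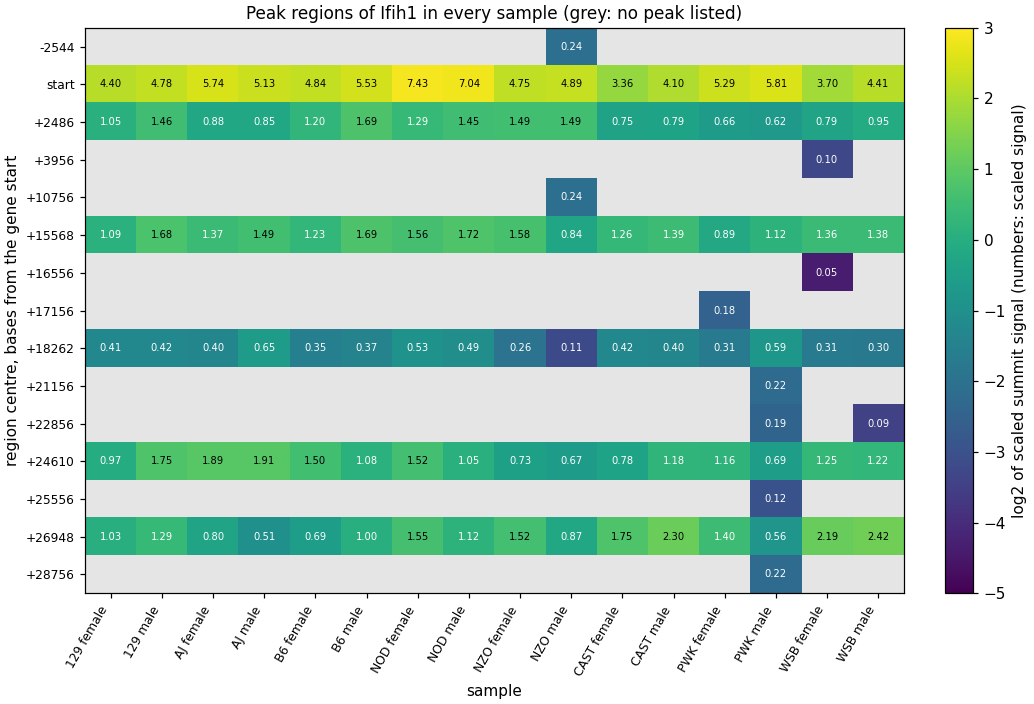
Scaled summit signal of the 15 Ifih1 regions (rows, by distance of the region's centre from the gene start in bases) in the 16 samples (columns), coloured by log2 of the value and printed in each cell; grey marks no listed peak. The start and 5 introns were called in all samples, and the other rows in 1 or 2.

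Of the Ifih1 introns, 2 passed the strain test, and 200 bases around their median summits are printed because they carry the differences described next. Neither window held the ISRE, GAS or kappaB letters, which 2.48%, 6.07% and 1.08% of the same windows of all shared regions held. The letters are those of the B6 reference, on the strand of the gene.
Ifih1 intron, 2486 bases past the start, chr2:62643436-62643635, - strand: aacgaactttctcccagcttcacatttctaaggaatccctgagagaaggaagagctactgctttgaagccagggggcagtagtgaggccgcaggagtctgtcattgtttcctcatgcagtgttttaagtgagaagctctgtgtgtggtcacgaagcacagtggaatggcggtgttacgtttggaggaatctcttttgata
Ifih1 intron, 26948 bases past the start, chr2:62619102-62619301, - strand: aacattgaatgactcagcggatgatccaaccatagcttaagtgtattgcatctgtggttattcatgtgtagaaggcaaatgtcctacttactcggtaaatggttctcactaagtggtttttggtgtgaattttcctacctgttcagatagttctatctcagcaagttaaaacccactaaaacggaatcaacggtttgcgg

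The intron centred 2486 bases past the Ifih1 start (chr2:62643335-62644202) was less accessible in the wild-derived strains and AJ than in the other strains. In female and male it was 1.05 and 1.46 in 129, 0.877 and 0.855 in AJ, 1.20 and 1.69 in B6, 1.29 and 1.45 in NOD, 1.49 and 1.49 in NZO, 0.755 and 0.787 in CAST, 0.661 and 0.625 in PWK and 0.792 and 0.955 in WSB. The 8 samples of PWK, CAST, WSB and AJ lay between 0.625 and 0.955, below the 8 of 129, B6, NOD and NZO, which lay between 1.05 and 1.69. The strain test passed with an adjusted p of 0.0074, and it did so in 27 of 29 alternatives, including each of the 16 that left out 1 sample, with adjusted p from 0.0022 to 0.127. It did not pass with the listed mean signal (0.127) or with centring on start regions (0.052). PWK alone was 0.587-fold the other strains (-0.77 ± 0.18 on the log2 scale, SE, adjusted p = 0.014). This was the only member region that passed in the PWK contrast, which called 11.1% of all shared regions, and the adjusted p was 0.051 without the PWK female (-0.90) and 0.153 without the PWK male (-0.64), with 0.0017 to 0.153 over 29 alternatives.

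The intron centred 26948 bases past the start (chr2:62618761-62619852) was highest in WSB and CAST. Female and male samples gave 1.03 and 1.29 in 129, 0.800 and 0.509 in AJ, 0.690 and 1.00 in B6, 1.55 and 1.12 in NOD, 1.52 and 0.873 in NZO, 1.75 and 2.30 in CAST, 1.40 and 0.563 in PWK and 2.19 and 2.42 in WSB. The 4 samples of WSB and CAST were above all others, and the AJ male and the PWK male were the lowest. The strain test gave an adjusted p of 0.025, and WSB was 2.12-fold the other strains (1.09 ± 0.30, SE, adjusted p = 0.048), in a contrast that called 5.81% of all shared regions. Both calls depended on the settings, with the strain test past the threshold in 20 of 28 alternatives and the WSB contrast in 15 of 28 (adjusted p 0.0018 to 0.122 and 0.0136 to 0.585). The strain test missed the threshold without the AJ male (0.066), the CAST male (0.067), the WSB female (0.055) or the WSB male (0.082).

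The other 3 shared introns of Ifih1 did not pass the strain test. At 18262 bases past the start (chr2:62627800-62628187), NZO had 0.259 in the female and 0.109 in the male, and the other 14 samples 0.295 to 0.655. These were low signals, with unscaled summits of 21 in the NZO female and 6 in the NZO male, and at most 54 (CAST male). The peak passed the irreproducible discovery rate of 0.05 in CAST, NOD and WSB, and not in NZO. The NZO contrast passed (0.435-fold, -1.20 ± 0.28 on the log2 scale, SE, adjusted p = 0.031), against 5.19% of all regions in that contrast, and it rested on the NZO male. Without that sample it fell to -0.54 (adjusted p = 0.535, with adjusted p from 0.0017 to 0.535 over 27 alternatives). It also missed the threshold, at 0.053 to 0.056, without any one of the CAST, NOD or WSB samples. At 24610 bases past the start (chr2:62621151-62622139), AJ was highest with 1.89 and 1.91, and NZO lowest with 0.728 and 0.673 (adjusted p = 0.081). At 15568 bases past the start (chr2:62630306-62631069), the samples spread from 0.836 in the NZO male to 1.72 in the NOD male, and the strain test did not pass (adjusted p = 0.539).

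STAT2 and IRF9 form, with another STAT protein, the complex that binds the ISRE after type I interferon. The Stat2 start region (chr10:128269541-128271073) was called in every sample. The scaled signals of female and male were 5.79 and 4.20 in 129, 3.72 and 4.31 in AJ, 5.20 and 3.30 in B6, 4.66 and 3.73 in NOD, 4.15 and 4.80 in NZO, 4.76 and 4.46 in CAST, 4.29 and 3.44 in PWK and 3.44 and 3.91 in WSB. The strains overlapped throughout, with no neighbouring pair in their order apart, and the strain range of 0.42 on the log2 scale was the smallest of the 15 (adjusted p = 0.787). The other 5 Stat2 regions were called in 1 to 6 samples, none above 0.293.

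The Irf9 start region (chr14:55603376-55604620) was called in every sample. In female and male it was 3.02 and 2.78 in 129, 1.58 and 2.09 in AJ, 2.33 and 1.55 in B6, 2.09 and 2.02 in NOD, 2.63 and 3.15 in NZO, 2.77 and 2.41 in CAST, 2.66 and 2.41 in PWK and 2.06 and 2.61 in WSB. Its highest values were in the NZO male and the 129 female and its lowest in the B6 male and the AJ female, and the strains overlapped (adjusted p = 0.211). The summit lay 475 to 517 bases past the gene start in the 16 samples, not at the start itself. An upstream Irf9 region, 200 bases wide, was called in the PWK male alone.

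IRF7 is the factor that amplifies type I interferon production, and IRF1 is induced by interferon-gamma through the GAS element of its promoter. The Irf7 region (chr7:141265159-141266826) was called in every sample, with an irreproducible discovery rate within 0.05 in 6 of the 8 strains. Female and male samples gave 1.29 and 0.565 in 129, 0.585 and 0.436 in AJ, 1.05 and 0.313 in B6, 0.802 and 0.683 in NOD, 0.716 and 1.91 in NZO, 1.21 and 0.699 in CAST, 0.694 and 0.688 in PWK and 0.811 and 0.682 in WSB. The NZO male stood apart with 1.91, against 0.716 in the NZO female, while the 129, B6 and CAST females were each higher than their males. The strain test did not pass (adjusted p = 0.472), and females were higher in 7 of 8 strains without a sex effect past the threshold (0.39 ± 0.26 on the log2 scale, SE, adjusted p = 0.999).

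The Irf1 region (chr11:53769069-53784502) spanned 15434 bases and included the start of Gm17334, but its highest summit was at the Irf1 start in all samples. The scaled signals of female and male were 2.24 and 1.55 in 129, 0.985 and 0.800 in AJ, 1.39 and 0.892 in B6, 1.31 and 0.707 in NOD, 1.49 and 2.65 in NZO, 2.02 and 1.47 in CAST, 0.839 and 1.16 in PWK and 1.12 and 0.989 in WSB. The highest values were in the NZO male, the 129 female and the CAST female. The lowest were in the NOD male, the AJ male and the PWK female. Across strains the adjusted p was 0.060. It was 0.041 without the NZO male and 0.0072 without the NZO female, within 0.0037 to 0.413 over 28 alternatives.

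CXCL10 is a chemokine that draws T cells to islets, and its gene is a target of interferon-gamma. The start region (chr5:92348094-92349799) was called in all samples, and no other region was called within the gene or upstream of it. In female and male it was 4.84 and 3.67 in 129, 4.98 and 3.49 in AJ, 3.99 and 2.93 in B6, 3.67 and 3.07 in NOD, 3.16 and 4.24 in NZO, 2.93 and 2.68 in CAST, 2.97 and 2.84 in PWK and 3.54 and 3.57 in WSB. The 4 samples of CAST and PWK lay between 2.68 and 2.97 and were below all others but the B6 male. The strain test did not pass (range 0.58 on the log2 scale, adjusted p = 0.350).

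SOCS1 and SOCS3 are induced by cytokines and inhibit JAK signalling. At the Socs1 start (chr16:10784226-10786833) the peak was called in all samples. Female and male samples gave 2.02 and 1.62 in 129, 1.60 and 1.05 in AJ, 1.77 and 1.06 in B6, 1.80 and 1.37 in NOD, 1.63 and 2.53 in NZO, 1.76 and 1.75 in CAST, 1.42 and 1.72 in PWK and 1.26 and 1.20 in WSB. No neighbouring strains in the order stood apart (adjusted p = 0.378), and the NZO male was the highest sample. The 2 other Socs1 regions, 1 over an exon and 1 upstream, were called only in the NZO male.

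Socs3 had 2 regions, and the one called in all 16 samples had its highest summit 6460 to 6615 bases past the start. It ran from 1959 to 7731 bases past the start and was assigned by overlap with the gene. Its summit thus need not lie within Socs3. The scaled signals of female and male were 2.21 and 0.986 in 129, 0.569 and 0.618 in AJ, 1.44 and 0.735 in B6, 1.27 and 0.976 in NOD, 1.26 and 2.73 in NZO, 1.81 and 1.43 in CAST, 1.05 and 1.06 in PWK and 0.726 and 0.977 in WSB. That region (chr11:117962316-117968088) gave an adjusted p of 0.081 across strains, with AJ lowest. The start region (chr11:117968677-117971131) had no peak in the AJ male, which had the shortest list of all. In female and male it was 1.36 and 0.696 in 129, 0.369 and no peak in AJ, 0.750 and 0.554 in B6, 0.593 and 0.512 in NOD, 0.864 and 2.16 in NZO, 1.24 and 0.846 in CAST, 0.597 and 0.813 in PWK and 0.840 and 0.716 in WSB. The AJ female had the lowest listed value, and the NZO male was the highest at both Socs3 regions. The start region was not in the main fit, and with the unlisted AJ male value set to 0 its adjusted p across strains was 0.195 among regions called in at least 8 samples.

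The NZO male was the highest of the 16 samples at 6 of the 9 starts, those of Irf1, Irf7, Irf9, Socs1, Socs3 and Ptpn2. The median scaled signal over all 12221 shared start regions was also highest there, 2.44 in the NZO male and 2.43 in the 129 female, against 1.53 in the B6 male at the low end. Over the 16 samples, the correlation with this median was r = 0.90 and rho = 0.84 for Irf1, 0.83 and 0.69 for Irf7, 0.88 and 0.87 for Socs1, and 0.84 and 0.76 for Socs3, as a description of points that share libraries. Without the NZO male and the 129 female, the r values were 0.76, 0.58, 0.80 and 0.63. The Cxcl10 start did not follow this median, with r = 0.32 and rho = 0.10, and r = -0.31 without those samples. Divided by the sample's own median of start regions, the NZO male still had the highest value of the 16 at Irf1, Irf7, Socs1 and Socs3, for example 0.784 at Irf7 where the other samples had 0.205 to 0.582. It was not the highest at Stat2, Irf9, Ifih1, Cxcl10 or Ptpn2 on this ratio. The leukocyte (3.44), exocrine (1.02) and duct (1.16) marker sums of the NZO male were also the highest of the 16. Its endothelial sum was not (0.473, with 4 samples above it), and the leukocyte sum of the 129 female was 0.586. The islet endocrine marker sum was 16.8 in the NZO male, with 14 samples above it, but the list was mixed. Ins1 (1.45), Gcg (1.85) and Neurod1 (2.29) were the lowest of the 16 there, and Mafa (3.67) was the highest. The part of these marker levels in the result was not tested.

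**Figure D3:**
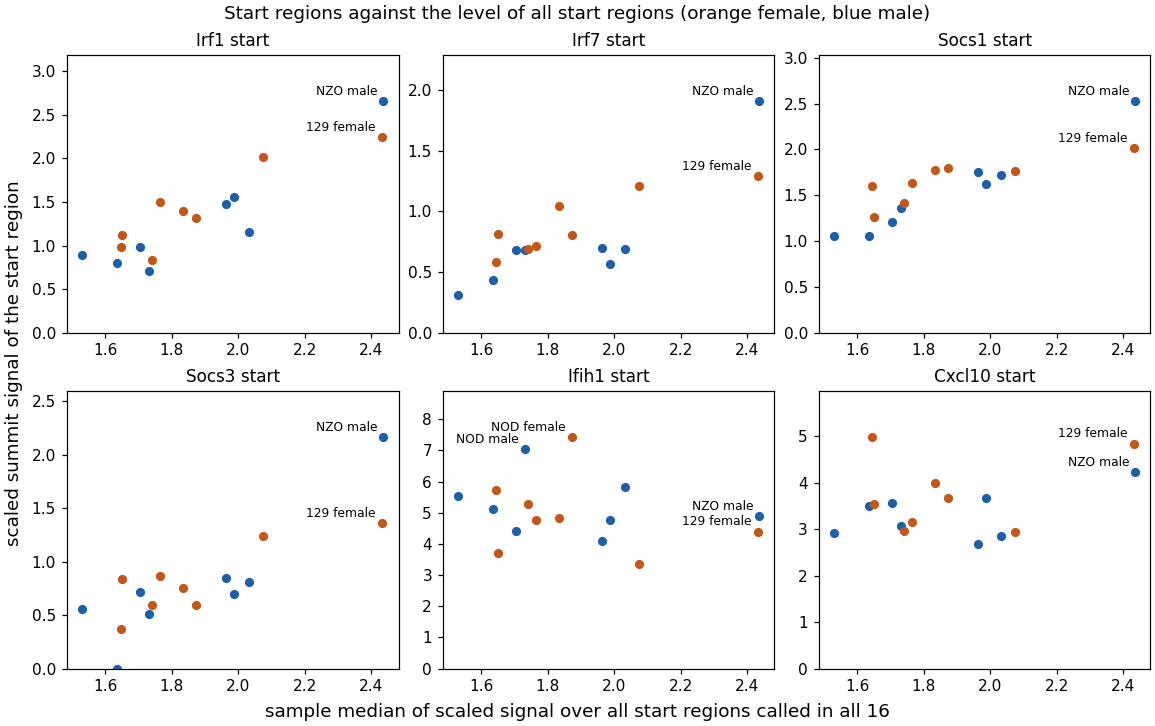
Scaled summit signal of 6 start regions (y axis) against the sample's median over all shared start regions (x axis), 1 point per sample, females orange and males blue. Irf1, Irf7, Socs1 and Socs3 were higher in samples with a higher median, up to 2.44 in the NZO male, while Ifih1 was highest in NOD; the point at 0 for Socs3 has no listed peak.

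Ptpn2 encodes a phosphatase that removes phosphate from JAK and STAT proteins and is another type 1 diabetes risk gene in humans. Its start region (chr18:67723096-67725357) was highest in 129 and NZO. Female and male samples gave 3.38 and 3.29 in 129, 1.63 and 1.60 in AJ, 2.17 and 1.45 in B6, 1.99 and 2.00 in NOD, 2.56 and 3.69 in NZO, 2.28 and 2.08 in CAST, 1.73 and 3.00 in PWK and 1.58 and 1.74 in WSB. The 129 samples, the NZO male and the PWK male were above the rest. The strain test missed the threshold (adjusted p = 0.061), and so did 129 against the other strains (1.63-fold, 0.71 ± 0.22 on the log2 scale, SE, adjusted p = 0.095). The start region followed the median of all start regions (r = 0.89, rho = 0.91, r = 0.78 without the NZO male and the 129 female).

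The Ptpn2 intron centred 18310 bases past the start (chr18:67705940-67706630) was lowest in 129 and highest in PWK and WSB. The scaled signals of female and male were 0.603 and 0.725 in 129, 1.55 and 0.727 in AJ, 0.976 and 2.25 in B6, 1.05 and 0.890 in NOD, 2.01 and 1.44 in NZO, 1.55 and 1.56 in CAST, 2.68 and 2.09 in PWK and 2.04 and 2.42 in WSB. The 4 PWK and WSB samples were at 2.04 or above, a level that the B6 male (2.25) also reached, while both 129 samples and the AJ male were under 0.73. The strain test passed (range 1.81 on the log2 scale, adjusted p = 0.027), and 129 was 0.433-fold the other strains (-1.21 ± 0.30, SE, adjusted p = 0.048), in a contrast that called 3.09% of all shared regions. The strain call held in 18 of 29 alternatives (adjusted p 0.0065 to 0.129) and the 129 call in 15 of 29 (0.0126 to 0.513). Leaving out 1 sample ended the strain call for either 129, CAST, NOD or WSB sample and for the PWK female, with adjusted p between 0.051 and 0.084.

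The intron centred 24846 bases past the start (chr18:67698754-67700745) had no peak in either AJ sample. In female and male it was 0.414 and 0.333 in 129, no peak in either AJ sample, 0.512 and 0.518 in B6, 0.419 and 0.476 in NOD, 0.691 and 0.691 in NZO, 0.689 and 0.537 in CAST, 0.484 and 0.781 in PWK and 0.151 and 0.0909 in WSB. WSB was low as well, and the other 6 strains lay between 0.333 and 0.781. This region was not in the main fit. Among the 89729 regions called in at least 8 samples, with unlisted values set to 0, its adjusted p across strains was 4.7e-05, where 20.0% of regions passed and where a value of 0 stands for no called peak and not for a measured absence. The intron centred 13515 bases past the start was called in all but the AJ male, with the highest value in the PWK female (0.952) and an adjusted p of 0.256 in the same alternative. The other 10 Ptpn2 regions were called in 1 to 8 samples at 0.0660 to 0.500.

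**Figure D4:**
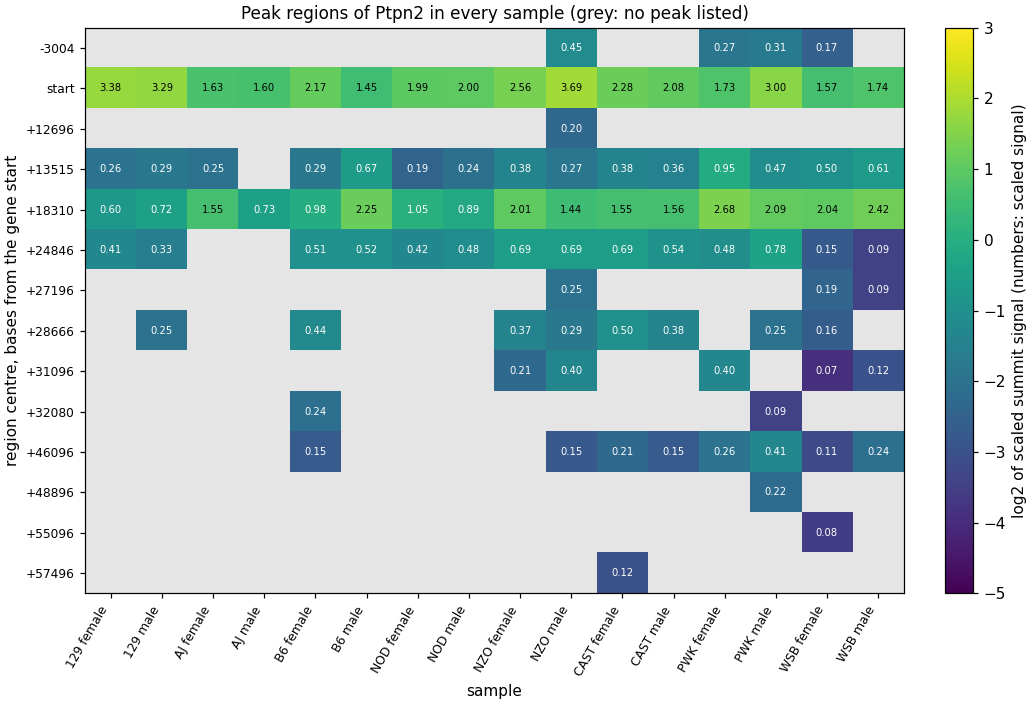
Scaled summit signal of the 14 Ptpn2 regions (rows, by distance of the region's centre from the gene start in bases) in the 16 samples (columns), coloured by log2 of the value and printed in each cell; grey marks no listed peak. The intron at +24846 was grey in both AJ samples and at 0.151 and 0.0909 in WSB.

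Each strain was also set against the mean of the other 7 in the same fit. Over the 15 shared regions and 8 contrasts, 4 passed, all named above: Ptpn2 at 18310 bases in 129, and Ifih1 at 18262 bases in NZO, at 2486 bases in PWK and at 26948 bases in WSB. No member region passed in AJ, B6, CAST or NOD, where 6.81%, 3.13%, 20.6% and 3.02% of all shared regions did. CAST thus had 0 of 15 member regions in the contrast that called the most regions. Over all shared regions and contrasts, 7.34% passed. The total of 4 was 16 without the NZO female (15.8% of all in the same fit), 11 without the NZO male (11.2%), 8 without the B6 male (6.78%), and 1 without either sample of CAST, NOD or WSB (3.54% to 4.96%).

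**Figure D5:**
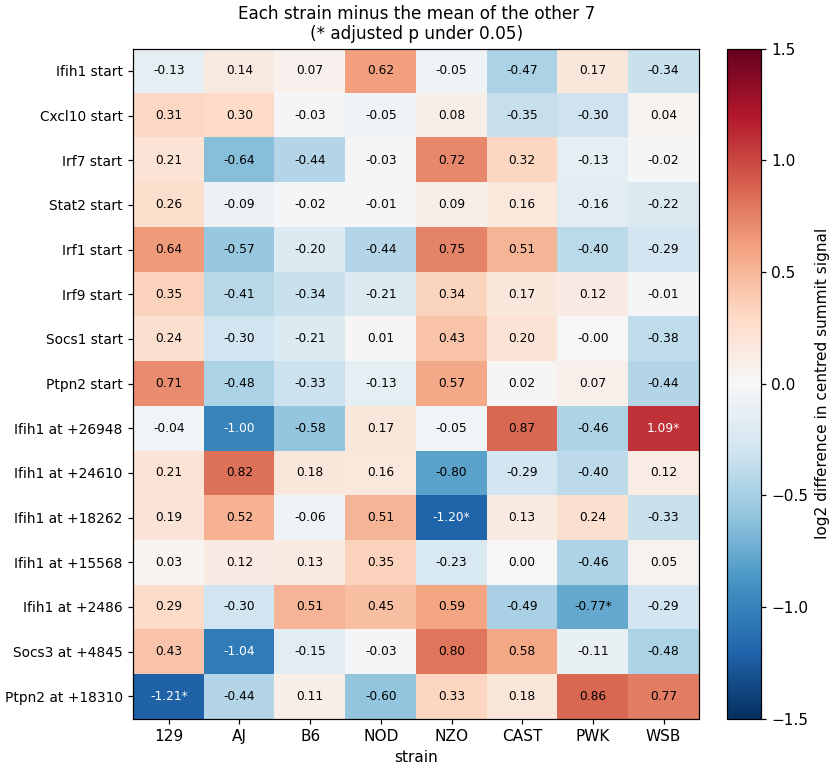
Difference of each strain from the mean of the other 7 (columns) at the 15 shared regions (rows), in log2 units of centred summit signal, with an asterisk where the adjusted p was under 0.05. The 4 asterisks lie in introns of Ifih1 and Ptpn2, and the largest difference at a start region without one was 0.75 (Irf1 in NZO).

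Between the 3 wild-derived and the 5 classical strains, 0 of the 15 member regions passed in limma on the strain means, where 0.0342% of all shared regions did. At an unadjusted p under 0.05 there were 2 of 15, near the 12.1% of all shared regions: Ifih1 at 2486 bases (0.606-fold in wild-derived strains, -0.72 ± 0.24 on the log2 scale, SE, adjusted p = 0.259) and Ptpn2 at 18310 bases (1.80-fold, 0.84 ± 0.31, SE, adjusted p = 0.303). Their start regions differed by -0.30 ± 0.23 and -0.16 ± 0.28 on the log2 scale. Between females and males, 0 of 15 passed in limma and 0 had an unadjusted p under 0.05, where 0% of all shared regions passed and 1621 of 40940 had an unadjusted p under 0.05. The differences of female minus male ranged from -0.17 at the Ifih1 intron 2486 bases past the start to 0.39 at Irf7.

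The rest of the pathway was followed at the start regions of 58 further genes in 6 lists. Of these, 38 had a shared start region and 8 passed the strain test, against 24.4% of all shared start regions, a share near which a count is not a result about these genes. Interferon-stimulated genes gave 5 of the 8, from 9 tested of 17. Ifit1 and Ifit2, which encode RNA-binding antiviral proteins, were highest in AJ (4.46 ± 0.785 and 4.20 ± 0.672 scaled signal, SD, n = 2). They were lowest in 129 (1.44 ± 0.0802) and B6 (1.36 ± 0.00304), respectively, with adjusted p of 0.0022 and 0.0011. Ifit3, whose start region lies between those of Ifit1 and Ifit2, was highest in WSB (1.48 ± 0.0267) and lowest in PWK (0.483 ± 0.0677, adjusted p = 0.0074). Gbp2, a guanylate-binding protein gene, was highest in AJ (1.80 ± 0.307) and lowest in B6 (0.701 ± 0.00254, adjusted p = 0.0032), and Rsad2, which encodes viperin, highest in B6 (2.17 ± 0.507) and lowest in CAST (0.889 ± 0.0429, adjusted p = 0.024).

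Of 9 receptor genes tested, 1 passed, the TNF receptor gene Tnfrsf1a, with 3.30 ± 0.223 in CAST and 0.841 ± 0.160 in AJ (adjusted p = 3.1e-04). Of 5 nucleic acid sensing genes, 1 passed, Mb21d1, the gene of the DNA sensor cGAS, with 0.728 ± 0.384 in NZO and 0.214 ± 0.00642 in PWK (adjusted p = 0.017). Of 6 STAT and IRF factors tested, 1 passed. None of 4 kinase genes and none of 5 negative regulators did. Among the largest ranges between strains that did not pass were those of Irf3 (1.24, adjusted p = 0.051), Stat3 (1.19, adjusted p = 0.111), Il1r1 (1.17, adjusted p = 0.087) and Il6ra (0.93, adjusted p = 0.210), on the log2 scale. The median range was 1.25 for interferon-stimulated genes and 0.58 for kinases, against 0.94 over all shared start regions. The count of 8 was 16 without the NZO female, where 52.9% of all shared start regions passed.

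Promoter regions most like each member start over the 16 samples were taken from the 12221 shared start regions, as the 2 with the highest Pearson r of centred log2 values. For Irf1 they were at Stk24 and Impdh2 (both r = 0.95), for Irf7 at Mroh8 with Rpn2 (0.96) and Park7 with Tnfrsf9 (0.92), and for Socs1 at Zfand2b (0.95) and Tmem201 (0.93). Ptpn2 was most like Mga (0.95) and S100pbp with Yars (0.94), Irf9 most like Fam220a (0.93) and Dtnbp1 (0.92), and Stat2 most like Vcp (0.91) and the region of Atp5b (0.90). The most like regions of Ifih1 were at Chl1 (0.92) and Macrod2 (0.91), and those of Cxcl10, with the lowest r, at Rasgef1a and Gm48249 (both 0.85). These are the extremes of many comparisons over samples that share their libraries, and they are given as a description.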

How the data were processed

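ATAC-seq, which marks open chromatin by transposase insertion, was measured in 16 islet samples. Per the submitters' processing notes and the methods of the study, adapters were trimmed with cutadapt 2.0, reads were aligned to mm10 with Bowtie2 2.3.4.1, and mitochondrial reads and duplicates were removed with SAMtools and Picard 2.9.2. The authors used MOSAiCS to call peaks per sample (false discovery rate 0.05) and compared female and male by irreproducible discovery rate. A shift of read ends for the transposase was not given in the sources used here. The deposited lists hold the summit signal of each peak, not scaled to depth, and a deposited −log10 p-value, used only for an alternative. The −log10 irreproducible discovery rate of the strain lists was used to count strains. The study reports average read numbers per sample. Read totals of the single samples were not used here, so no counting interval is given. Alignment to 1 reference can lower signal where a strain differs from it. The study also made alignments to individualized genomes and judged the difference in alignment to be small. Those alignments were not used here, and the effect at the single regions above was not tested.

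For each region called in all 16 samples, log2(summit signal + 1) was centred on the median of the sample over these regions. limma 3.58.1 (R 4.3.3) was fitted to all 40940 regions with strain and sex as terms, with Benjamini-Hochberg adjustment over all regions and a threshold of 0.05. Classes were compared on strain means with strain as the unit. The pseudocount of 1 understates changes of low signals. The code was tested on simulated data. The labels do not say whether the samples of a strain are single animals, so p-values measure the spread between these samples. Named were all 9 genes, pathway genes called in the strain test (up to 10), the 5 with the largest range among those not called, and the 2 promoters most like each start. Members and lists were chosen with earlier results of these data known. Among the genes this rule selects from the pathway lists, 2 are counted and not reported by name here. Alternatives covered centring, quantile normalization, pseudocount, measure, filters, peak thresholds, sex term, prior and left-out samples.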

Additional observations from a re-analysis of the deposited data

Results flagged for a closer look

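Within the 8 females and the 8 males, the highest and the lowest sample were compared with the nearest other sample over the range of the group (Dixon's ratio). Of 36 such groups, 7 stood out, where by chance about 1 in 20 would if the groups were independent. The groups share the same samples, so the excess over that share cannot be judged. It was the NZO male that was the highest male in 6 of the 7. Its scaled signal was 2.65 at the Irf1 start (next male 1.55), 1.91 at the Irf7 start (next 0.699), 2.53 at the Socs1 start (next 1.75), 2.16 at the Socs3 start (next 0.846) and 2.73 at the Socs3 region centred 4845 bases past the start (next 1.43). The sum over leukocyte marker starts was 3.44 in the same sample (next 0.625), and its part in the other values was not tested. The PWK female stood out at the Ptpn2 intron centred 13515 bases past the start, with 0.952 (next female 0.500).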

How the results depend on the processing

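Shares in parentheses are those of all features called in the same fit. The strain test at member regions called 3 (35.7%), against 0 (24.6%) with centring on start regions (chosen after seeing the data), 5 with centring in GC bins (41.1%) or without the sex term (39.4%), 6 with a pseudocount of 10 (41.6%) or a trended robust prior (41.5%), and 13 (63.2%) without centring. Leaving out 1 sample gave 1 to 10 (18.7% to 60.1%). The contrasts of 1 strain with the other 7 called 4 of 120 (7.34%), against 0 (4.62%) with centring on start regions, 2 of 105 (3.24%) without CAST, 8 (8.52%) with a pseudocount of 10, 9 with GC bins (9.18%) or the trended robust prior (8.65%), 24 (15.2%) without centring, and 1 to 16 (3.54% to 15.8%) with 1 sample left out. With regions in at least 8 samples, which tests 20 member regions and not 15, there were 7 of 160 contrasts (7.38%). Other pathway starts gave 8 of 38 (24.4% of start regions), against 24 (67.9%) without centring, 6 to 16 (10.8% to 52.9%) with 1 sample left out, and 5 of 46 (13.3%) with at least 8 samples. The class and sex counts were 0 under all alternatives run for them, and none of the 5 contrasts of 1 strain that were recomputed changed sign. Other differences named in the text were not recomputed. The cause of these shifts was not tested. Female and male were compared within strains by the strain and sex terms, and no replicate number in the labels pairs samples across strains. The depth of each sample was not used, and a region without a listed peak is not a measured absence.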
